A study of Mus musculus with 32 samples.

Results

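The genes described here are those coding for the histones that are made with DNA replication, the clustered H1, H2a, H2b, H3 and H4 genes. They were taken as the probesets of the mouse gene array that name exactly 1 gene whose symbol is an older Hist1h to Hist4h name or a current H1f, H2ac, H2bc, H3c or H4c name. The rule found 30 genes among 28944 probesets, each with 1 probeset: 8 of type H1, 4 of type H2a, 9 of type H2b, 3 of type H3 and 6 of type H4. By their older names 23 lie in the Hist1 cluster and 4 in the Hist2 cluster. The other 3 (H1f7, H1f8 and H1f10) lie outside both, so the symbol rule also takes in linker histones that are not made with replication. Of the Hist1 genes, H1f6, H2ac1 and H2bc1 are best known as testis forms. The rule reads symbols and no measured value, but the family was picked for description with earlier results of these data known.

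The study asked how a lowered dose of Myd88, the adaptor of Toll-like receptor signaling, changes B-cell leukemia in mice that carry 1 intact allele of Pax5, the B-lineage transcription factor. Its 32 arrays fall into 7 groups. The leukemia experiment holds leukemic bone marrow of 6 Pax5+/-;Myd88+/- mice and of 6 Pax5+/- mice, beside 4 samples of B220low IgM- proB and preB cells sorted from healthy wild-type marrow (sorted WT). The proB experiment holds proB cells of healthy mice in 4 genotypes with 4 arrays each, namely WT, Pax5+/- alone, Pax5+/- with 1 Myd88 allele (Pax5+/-;Myd88+/-) and Pax5+/- with none (Pax5+/-;Myd88-/-). All mice were of mixed C57BL/6 x CBA background and, per the labels, were kept pathogen-free and then moved at 2 months to conventional housing. The labels call the proB samples marrow cells selected for B220 on magnetic columns. The study's methods describe WT, Pax5+/- and Pax5+/-;Myd88+/- proB cells grown from mice of 2 to 3 weeks with 5 ng/ml IL7 on ST2 stromal feeder cells. Labels and methods conflict here, since mice of 2 to 3 weeks are too young for a move at 2 months. Which of them holds for the proB arrays is not settled. How the Pax5+/-;Myd88-/- cells were grown is not given in the sources used here. Ages at sampling and sexes per array are not given there either, and every array is labelled as its own biological replicate.

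Replication-dependent histone genes are switched on as cells enter S phase, when new DNA must be packed into nucleosomes, and their messages are destroyed when replication ends. Each nucleosome holds a core of H2A, H2B, H3 and H4, and the linker histone H1 binds where DNA enters and leaves it. Their messages end in a stem-loop in place of a poly(A) tail, although some genes of the family, H1f2, H2bc4 and H2bc21 among them, also give polyadenylated messages in cells that have left the cycle. The coding sequences of paralogs are nearly identical, so a probeset named for 1 gene can also bind messages of its relatives, and every single-gene value below is uncertain in that sense.

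The members on which the results turn lie in the Hist1 cluster on chromosome 13 (GRCm38.p6). The 4 neighbours H1f2, H2bc3, H2ac4 and H1f1 share a stretch of 25.6 kb, all on the plus strand, with gaps of 7202, 3864 and 12075 bases between them. H2ac4, older name Hist1h2ab, spans chr13:23751088-23751592. H1f2, older name Hist1h1c, spans chr13:23738807-23739531. Their promoters are shown because these neighbours differed in direction in the leukemias, and those of H4c3, H4c9 and H4c4 because the H4 genes did so too. Each sequence runs 5′ to 3′ on the strand of the gene, from 250 bases before the RefSeq gene start to 50 bases from it on. Capitals mark every match, on either strand, to 5 motifs. These are the TATA box, searched as TATAAA. The next is the CCAAT box, searched by these 5 letters. The octamer, which Pou2f1 is known to bind, was searched as ATTTGCAT. For the box of H1 promoters the search used AAACACA. For the core of the H4 element, which Hinfp is known to bind, it used GTCCG. No overlap between different motifs was removed. The positions are chr13:23738557-23738856, chr13:23746484-23746783, chr13:23750838-23751137 and chr13:23763418-23763717 on the plus strand, chr13:23698409-23698708 and chr13:22041313-22041612 on the minus strand, and chr13:23581318-23581617 on the plus strand.
H1f2: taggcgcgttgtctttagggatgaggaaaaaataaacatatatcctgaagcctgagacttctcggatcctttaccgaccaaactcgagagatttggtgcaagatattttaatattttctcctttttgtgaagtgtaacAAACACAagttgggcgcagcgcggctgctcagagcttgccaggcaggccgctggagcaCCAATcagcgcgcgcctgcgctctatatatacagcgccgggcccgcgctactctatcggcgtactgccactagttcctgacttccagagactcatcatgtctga
H2bc3: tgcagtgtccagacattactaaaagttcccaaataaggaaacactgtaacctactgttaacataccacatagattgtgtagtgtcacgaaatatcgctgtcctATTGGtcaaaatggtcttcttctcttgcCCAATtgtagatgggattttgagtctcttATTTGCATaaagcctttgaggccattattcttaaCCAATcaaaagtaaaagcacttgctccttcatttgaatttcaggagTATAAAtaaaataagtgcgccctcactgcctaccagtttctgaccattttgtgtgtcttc
H2ac4: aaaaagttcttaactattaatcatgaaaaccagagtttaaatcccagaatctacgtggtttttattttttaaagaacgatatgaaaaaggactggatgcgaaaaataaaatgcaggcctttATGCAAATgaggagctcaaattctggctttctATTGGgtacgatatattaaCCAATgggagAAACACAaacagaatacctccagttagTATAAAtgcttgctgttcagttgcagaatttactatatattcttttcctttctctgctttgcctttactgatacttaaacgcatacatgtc
H1f1: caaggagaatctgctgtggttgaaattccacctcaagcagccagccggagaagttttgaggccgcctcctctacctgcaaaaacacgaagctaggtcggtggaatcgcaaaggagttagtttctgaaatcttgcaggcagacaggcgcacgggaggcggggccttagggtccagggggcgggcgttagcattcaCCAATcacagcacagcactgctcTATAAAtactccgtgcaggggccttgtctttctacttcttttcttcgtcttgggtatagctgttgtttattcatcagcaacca
H4c3: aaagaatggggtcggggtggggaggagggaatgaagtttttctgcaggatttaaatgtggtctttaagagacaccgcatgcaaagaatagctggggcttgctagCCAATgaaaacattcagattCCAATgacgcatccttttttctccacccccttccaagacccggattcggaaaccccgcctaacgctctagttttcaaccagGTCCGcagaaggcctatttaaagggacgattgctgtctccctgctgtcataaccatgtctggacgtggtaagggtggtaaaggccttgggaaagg
H4c9: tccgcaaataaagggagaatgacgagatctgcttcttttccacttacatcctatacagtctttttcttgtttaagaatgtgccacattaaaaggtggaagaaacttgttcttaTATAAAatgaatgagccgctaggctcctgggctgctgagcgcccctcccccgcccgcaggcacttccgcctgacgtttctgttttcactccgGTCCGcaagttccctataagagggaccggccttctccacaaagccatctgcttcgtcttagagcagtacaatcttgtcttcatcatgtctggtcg
H4c4: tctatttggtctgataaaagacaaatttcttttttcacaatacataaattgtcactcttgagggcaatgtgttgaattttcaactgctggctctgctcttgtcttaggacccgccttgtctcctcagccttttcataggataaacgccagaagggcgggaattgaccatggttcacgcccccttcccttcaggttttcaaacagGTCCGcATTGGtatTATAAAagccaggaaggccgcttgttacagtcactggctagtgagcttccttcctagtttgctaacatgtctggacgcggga

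RefSeq promoters were at hand for 26 of the 30 genes. The octamer stood in 3 of 4 H2a and 5 of 7 H2b promoters (71.4%) and in 1.74% of all 32851 promoters of the same length. The GTCCG core stood in 5 of 5 H4 promoters, against 23.4% of all promoters. TATAAA was found in 57.7% of the members and 13.6% of all promoters, and CCAAT in 80.8% and 37.4%. The H1 box stood in 4 of 8 H1, 2 of 4 H2a and 2 of 7 H2b promoters and in 7.18% of all. No H3 or H4 promoter held it. H2ac4 held a TATAAA at -41 from its start, an H1 box at -68 and an octamer, on the opposite strand, at -129. Its neighbour H2bc3 held an octamer at -90. H1f2 held an H1 box at -112 and a CCAAT at -54, with no match to TATAAA in this window. In H4c3, H4c9 and H4c4 the GTCCG core began at -45, -45 and -46. H4c3 and H4c9 differed in direction from H4c4 between the leukemias, and a link to these positions was not tested. A match is a description of letters and no evidence of a bound factor.

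Signal is given as log2 of the array value, so that a difference of 1 is a 2-fold change. Probe signals of different genes cannot be set against each other, and the ends of each type are given to show where on the scale the members lay. Averaged over all 32 arrays, type H1 ran from 6.03 (H1f8, an oocyte form) to 12.78 (H1f1). Type H2a ran from 7.03 (H2ac8) to 12.54 (H2ac15), and type H2b from 6.45 (H2bc22) to 12.52 (H2bc14). Type H3 ran from 5.04 (H3c7) to 7.94 (H3c4), and type H4 from 9.57 (H4c9) to 13.83 (H4c4). No filter on low values entered the tests. At a mean of 6 or more on the log2 scale, 28 of the 30 genes would have stayed in the leukemia experiment, where H1f8 and H3c7 lay below, and 29 in the proB experiment. The group means of a gene differed by 0.36 (H3c7) to 3.58 (H2ac4) between the lowest and the highest of the 7 groups. For 23 of 30 genes that range stayed under 1. A further 26 probesets name several histone genes at once and are left out of the counts. None of them differed more than 2-fold in any of the 8 comparisons. Group means were 12.81 to 13.61 for the 7 that name H2b genes alone and 13.74 to 14.27 for the 10 that name H3 genes alone. Whether so high a signal limits the differences they can show was not tested.

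The libraries bear their labels for the targeted gene: Myd88 ran from 8.26 to 9.39 in Pax5+/-;Myd88+/- leukemias and from 9.87 to 10.38 in Pax5+/- leukemias, and in proB cells from 9.21 to 9.63 in both groups with intact Myd88, from 8.51 to 8.78 in Pax5+/-;Myd88+/- and from 7.04 to 7.44 in Pax5+/-;Myd88-/- cells. Pax5 averaged 11.92 in sorted WT and 11.70 in WT proB cells and 10.96 to 11.21 in the 3 Pax5+/- proB genotypes, and in leukemias it ran from 7.69 to 12.29. Of 8 markers of the B lineage 7 were measured singly, and their median per array was 11.93 to 12.55 in sorted WT and proB cells. In leukemias it ran from 8.36 to 12.07. Replicates 2 and 4 of the Pax5+/- leukemias (9.57 and 8.36) and replicate 2 of the Pax5+/-;Myd88+/- leukemias (8.61) were lowest, and each leukemia count below was also taken without these 3. Array medians lay between 6.88 and 7.03.

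In Pax5+/-;Myd88+/- leukemias H2ac4 was higher and H1f2, H2bc4 and H3c15 were lower than in sorted WT cells. A gene was called at an adjusted p under 0.05 (limma, Benjamini-Hochberg over all probesets) and a change of over 2-fold. By this rule 1 of 30 histone genes was called higher, beside 3.33% of all probesets, and 3 of 30 were called lower, beside 4.30%. By the adjusted p alone 4 were higher (13.8% of all probesets) and 9 lower (17.1%). The median log2 difference of the 30 genes was -0.04, beside -0.01 over all probesets. In bulk marrow, fewer cells of a type and less RNA per cell cannot be told apart.

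Among the core histones, H2ac4, which codes for an H2A, read 10.37, 10.18, 9.92 and 10.12 in the 4 sorted WT samples. In the 6 Pax5+/-;Myd88+/- leukemias its lowest, median and highest values were 12.43, 12.64 and 13.11. All 6 leukemias lay above all 4 sorted samples, by over 2 units. The log2 difference was 2.58 (SE 0.24), a 5.98-fold rise, with an adjusted p of 7.78e-07 by limma and p = 0.00476 in the exact permutation test (2-sided, 210 splits), the smallest that this test can give. Of the other H2a genes, H2ac1 (0.12) and H2ac8 (0.08) did not pass the test and H2ac15 fell (-0.42, SE 0.11, adjusted p = 0.00737 by limma). In type H2b, H2bc18 was higher (0.45) and H2bc9 lower (-0.41) by the adjusted p alone, and H2bc4 was called lower (-1.57, SE 0.36, adjusted p = 0.00314 by limma). It read 9.42, 9.62, 9.67 and 9.45 in sorted WT cells and 7.17, 7.87 and 8.92 (lowest, median, highest) in the leukemias. Both sets stayed apart. Among the leukemias, replicates 1, 2 and 3 read 8.50 to 8.92 and replicates 4, 5 and 6 read 7.17 to 7.23. In type H3, H3c15 differed by -1.81 (SE 0.43, adjusted p = 0.00459 by limma). Its sorted WT values were 9.09, 8.46, 8.62 and 8.30, and its leukemia values ran from 5.61 over a median of 6.54 to 8.22. The highest leukemia lay just under the lowest sorted sample.

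The linker histone H1f2 showed the largest fall of the family. It read 11.20, 10.58, 11.44 and 10.61 in sorted WT cells and 7.55, 8.27 and 9.13 (lowest, median, highest) in Pax5+/-;Myd88+/- leukemias. Every leukemia lay more than 1 unit under every sorted sample. The difference was -2.70 (SE 0.32), a 6.48-fold fall (adjusted p = 9.30e-06 by limma, exact permutation p = 0.00476). Of the other linker histones H1f3 (-0.48), H1f5 (-0.47) and H1f6 (-0.32) were lower by the adjusted p alone, and H1f1, which lies next to H2ac4, differed by 0.10 (SE 0.14, adjusted p = 0.654 by limma). In type H4, H4c3 (0.95, SE 0.23) and H4c9 (0.76, SE 0.27) were higher and H4c4 was lower (-0.62, SE 0.08) by the adjusted p alone, and none reached 2-fold.

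**Figure D1:**
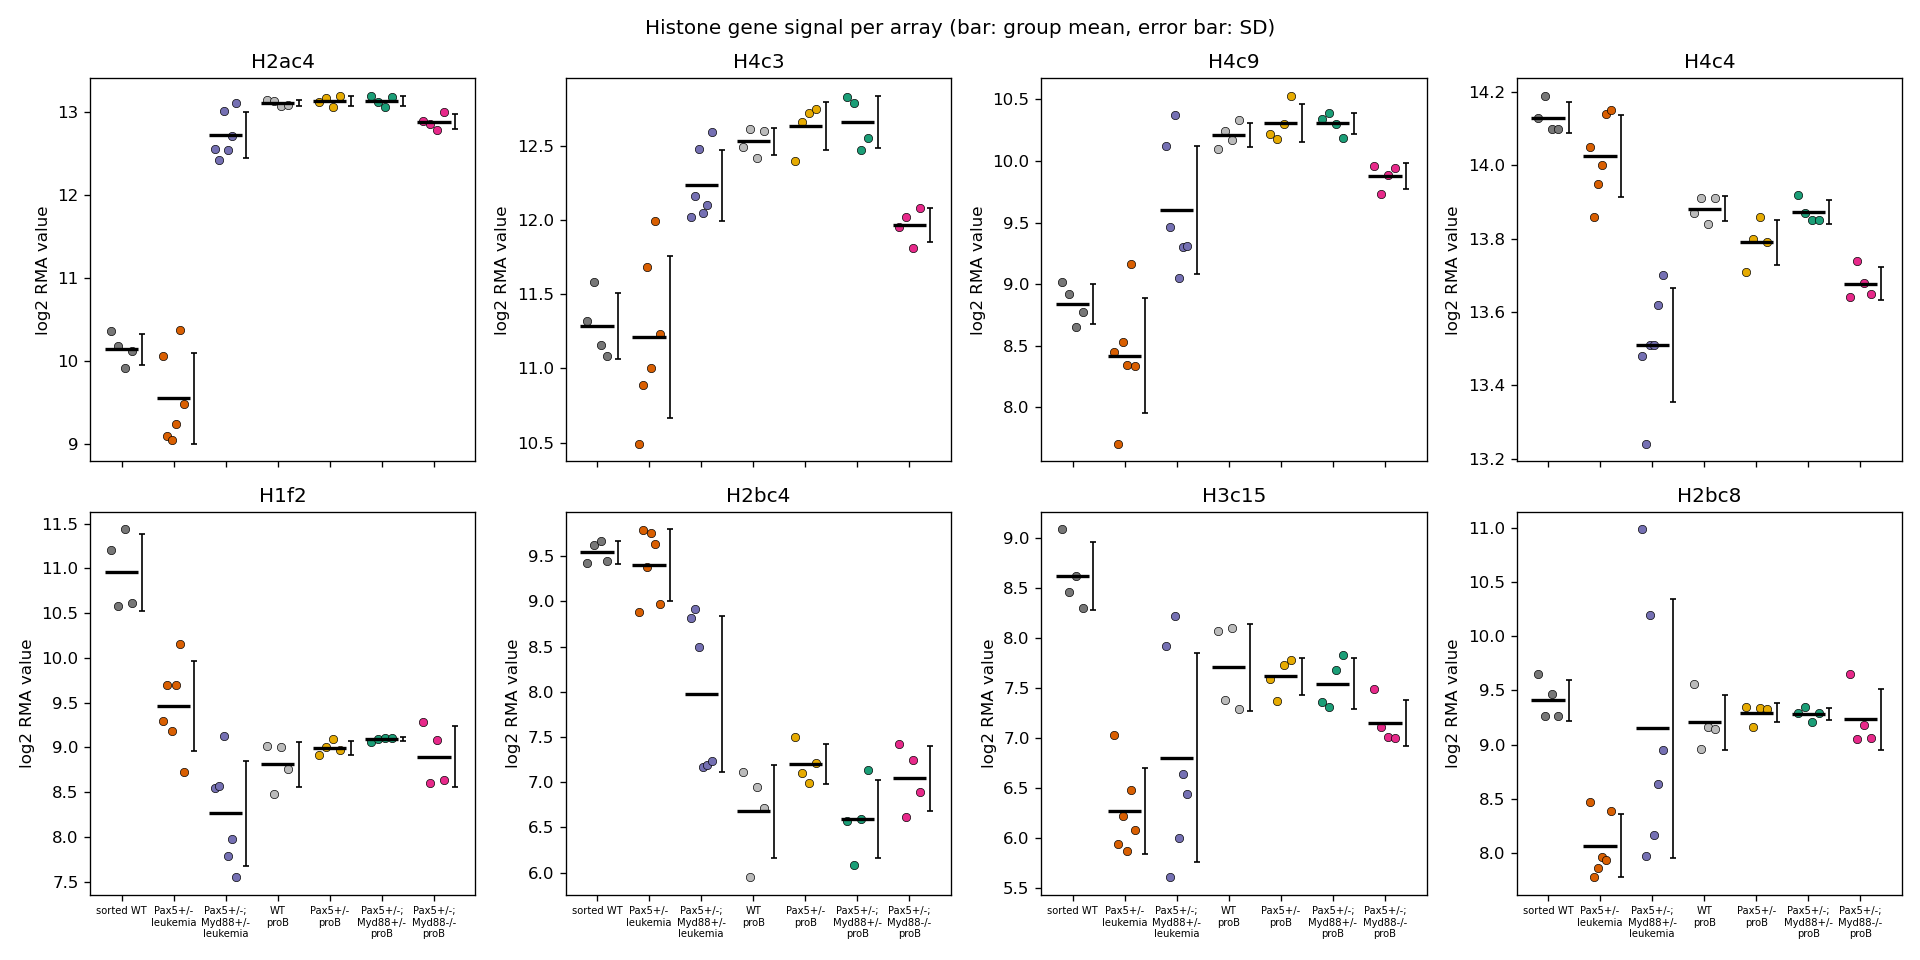
Log2 signal of 8 histone genes on each of the 32 arrays. Points are arrays in 7 groups, horizontal bars are group means and error bars are SD. H2ac4 is at 9.05 to 10.38 in sorted WT cells and Pax5+/- leukemias and at 12.43 or more in every other array, while H1f2 is highest in the sorted WT cells.

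In Pax5+/- leukemias no histone gene was called higher than in sorted WT cells, and H1f2, H3c15 and H2bc8 were called lower. All probesets gave 2.73% higher and 1.72% lower calls. By the adjusted p alone 0 of 30 were higher (11.7% of all probesets) and 9 were lower (12.8%). Over the family 28 of 30 differences were below 0, beside 16393 of 28944 probesets. The median of the 30 genes was -0.22, beside -0.03 over all probesets. The 6 genes lower by the adjusted p alone were H3c4 (-0.57), H1f6 (-0.50), H1f3 (-0.43), H2bc21 (-0.39), H2ac1 (-0.35) and H1f7 (-0.34). The same 4 sorted samples serve as the controls of both leukemia genotypes. Without replicate 4 of these samples the 9 lower genes became 5.

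H3c15, an H3 gene of the Hist2 cluster, read 5.87, 6.15 and 7.03 (lowest, median, highest) in Pax5+/- leukemias. This lay under all 4 sorted samples and gave a difference of -2.35 (SE 0.43, adjusted p = 0.00117 by limma). H1f2 read 8.72, 9.49 and 10.16, also under all sorted samples, with a difference of -1.50 (SE 0.32, adjusted p = 0.00295 by limma). H2bc8, which shares a gap of 179 bases with H2ac8 on the opposite strand, read 7.78, 7.95 and 8.47 against 9.65, 9.26, 9.47 and 9.26. Its difference of -1.34 (SE 0.46, adjusted p = 0.0455 by limma) lost its call in 9 of 10 fits that left out 1 array, in the fit with centred arrays and in the fit without the leukemias low in B-lineage markers. H2ac4 differed by -0.59 (SE 0.24, adjusted p = 0.0821 by limma), with overlapping values, and H2bc4 by -0.14 (SE 0.36, adjusted p = 0.806 by limma).

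The direct comparison of the leukemias gave 3 histone genes higher in Pax5+/-;Myd88+/- than in Pax5+/- leukemias (H2ac4, H4c9 and H4c3) and 2 lower (H2bc4 and H1f2). All probesets gave 1.25% higher and 2.56% lower calls. By the adjusted p alone 10 of 30 were higher, beside 18.1% of all probesets, and 4 were lower, beside 16.3%. The median difference of the 30 genes was 0.19, beside 0.01 over all probesets. This comparison shares its arrays with both comparisons against sorted WT cells. Without the 3 leukemias low in B-lineage markers 4 genes were called here, and 4 and 2 in Pax5+/-;Myd88+/- and Pax5+/- leukemias against sorted WT cells.

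H2ac4 had the largest difference: 9.05, 9.37 and 10.38 (lowest, median, highest) in Pax5+/- leukemias and 12.43 or more in every Pax5+/-;Myd88+/- leukemia. The gap between both sets was wider than the range of either. The difference was 3.17 (SE 0.21), a 9.01-fold rise (adjusted p = 7.17e-08 by limma, exact permutation p = 0.00216, the smallest that 924 splits can give). It was 3.04 without the 3 leukemias low in B-lineage markers. Its 2 nearest members differed by 0.19 (H2bc3, SE 0.22, adjusted p = 0.521 by limma) and 0.46 (H1f1, SE 0.13, adjusted p = 0.0106 by limma), and H1f2, on the far side of H2bc3, by -1.20 (SE 0.28, adjusted p = 0.0042 by limma).

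**Figure D2:**
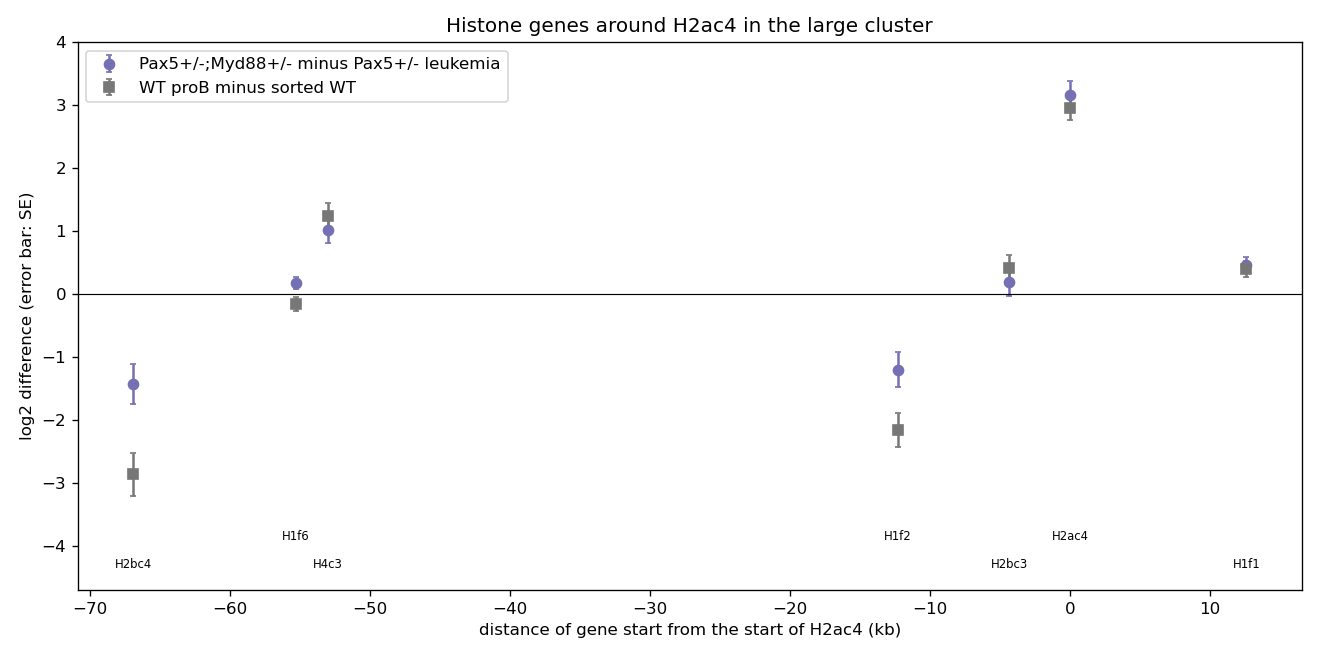
Log2 differences (y axis, error bars SE) of the histone genes around H2ac4, by the distance of each gene start from that of H2ac4 in kb (x axis). Circles are Pax5+/-;Myd88+/- minus Pax5+/- leukemias and squares are WT proB minus sorted WT cells. H2ac4 stands at 3.17 and 2.96, H1f2 at -1.20 and -2.15, and H2bc3 and H1f1 lie within 0.5 of 0.

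Of the 6 H4 genes 5 were higher and 1 lower by the adjusted p alone, which made H4 the type with the most members past the test in this comparison. H4c9 read 7.70, 8.39 and 9.16 (lowest, median, highest) in Pax5+/- and 9.05, 9.39 and 10.37 in Pax5+/-;Myd88+/- leukemias, a difference of 1.18 (SE 0.24, adjusted p = 0.00139 by limma), and the highest Pax5+/- value reached into the other set. Its 2 highest values came from replicates 1 and 3 (10.12 and 10.37), and without both the difference was 0.86 and lost its call. H4c3 read 10.49, 11.12 and 11.99 against 12.02, 12.13 and 12.59, a difference of 1.02 (SE 0.21, adjusted p = 0.00156 by limma). It lay close to the 2-fold limit and stood at 0.88 without replicate 1 of the Pax5+/- leukemias, and its values did not overlap. H4c6 (0.39), H4c14 (0.39) and H4c8 (0.34) were higher by less. H4c4 went the other way, with 13.86 to 14.15 in Pax5+/- and 13.24 to 13.70 in Pax5+/-;Myd88+/- leukemias (-0.52, SE 0.07, adjusted p = 5.49e-05 by limma), and its values did not overlap.

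H2bc4 was lower in Pax5+/-;Myd88+/- leukemias (-1.43, SE 0.32, adjusted p = 0.00283 by limma). Its Pax5+/- values were 8.88, 9.51 and 9.79 (lowest, median, highest), and 1 Pax5+/-;Myd88+/- leukemia reached into that range. H2bc8 and H3c15 were the most uneven members within this genotype. In H2bc8, replicates 1 and 3 read 10.99 and 10.20 and the other 4 read 7.97 to 8.95. In H3c15 the same 2 leukemias read 7.92 and 8.22 and the others 5.61 to 6.64. Their genotype differences were 1.09 (SE 0.41, adjusted p = 0.0535 by limma) and 0.54 (SE 0.39, adjusted p = 0.305 by limma). The SD of H2bc8 was 1.20 in Pax5+/-;Myd88+/- and 0.29 in Pax5+/- leukemias. Replicates 1 and 3 of the Pax5+/-;Myd88+/- leukemias also had the highest list medians of this genotype. For S-phase genes they read 9.88 and 10.24, against 9.46 to 9.75 in the others. For mitosis genes they read 10.34 and 10.62, against 9.70 to 10.11. A link to the histone values was not tested.

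**Figure D3:**
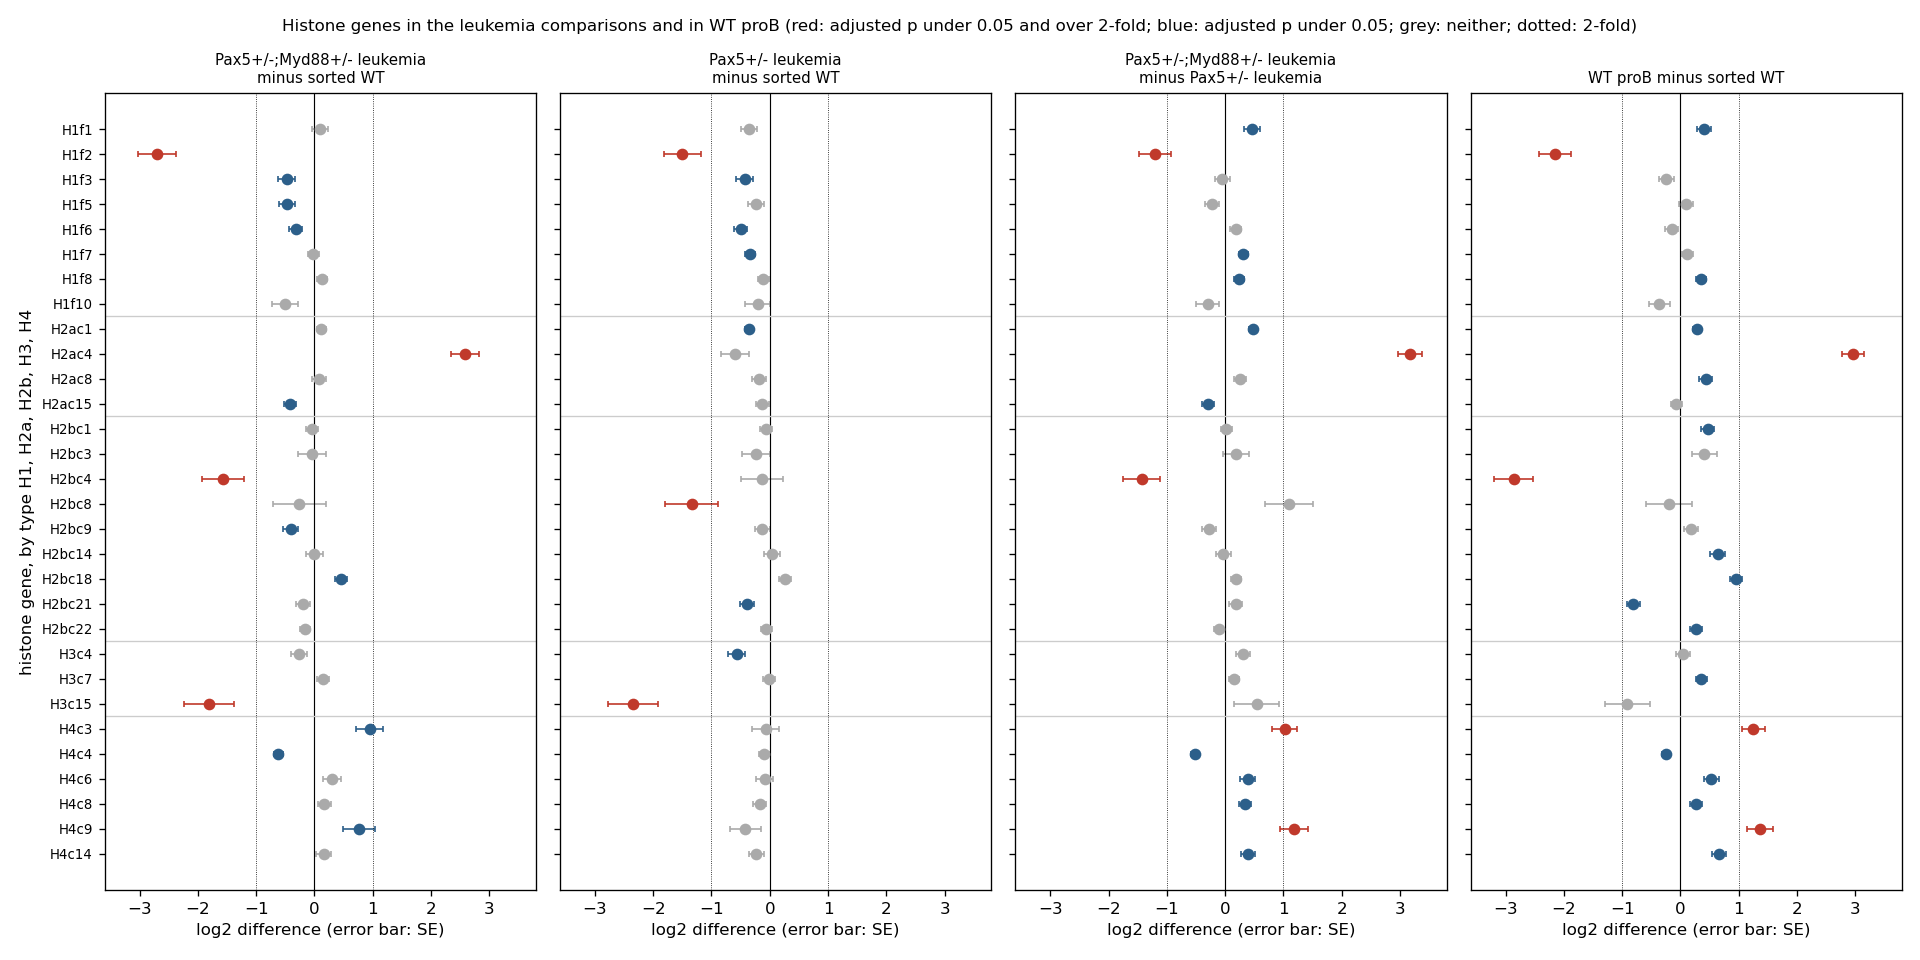
Log2 differences of the 30 histone genes (y axis, by type) in the 3 leukemia comparisons and in WT proB against sorted WT cells, with SE as error bars. Red points pass the adjusted p and the 2-fold limit (dotted lines), blue points the adjusted p alone. The largest values are those of H2ac4 (2.58, 3.17 and 2.96) on the right and H1f2 (-2.70) and H2bc4 (-2.86) on the left.

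Genes that work with the histones were taken from lists chosen beside the family. Of 20 genes for histone gene expression and message processing, 1 was higher and 1 lower in Pax5+/-;Myd88+/- leukemias than in sorted WT cells: Sympk, a scaffold of the cleavage complex (2.14, SE 0.62, adjusted p = 0.0158 by limma), and Eri1, an exonuclease that trims and degrades histone messages (-1.08, SE 0.15, adjusted p = 4.62e-05 by limma). In Pax5+/- leukemias 0 of 20 were called, and 2 were higher and 2 lower by the adjusted p alone. Between the leukemias 0 were called, with 3 higher and 9 lower by the adjusted p alone. Npat, the coactivator of the family, differed by -0.01, -0.06 and 0.04 in these 3 comparisons, Hinfp by 0.05, 0.24 and -0.18, and Slbp, which binds the stem-loop, by -0.27, -0.48 and 0.21. Of these 9 values only the -0.48 of Slbp passed the test (SE 0.16, adjusted p = 0.0359 by limma).

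Of 18 histone chaperones 2 were lower in Pax5+/-;Myd88+/- leukemias than in sorted WT cells, Asf1b (-1.73, SE 0.14) and Asf1a (-1.15, SE 0.15), and Asf1b was also lower than in Pax5+/- leukemias (-1.11, SE 0.12, adjusted p = 6.04e-06 by limma). Of 8 replacement histones, which are laid down outside replication, 3 were lower than in sorted WT cells: H2az2 (-1.83), H2ax (-1.20) and Cenpa (-1.01). In Pax5+/- leukemias 0 of 18 chaperones and 0 of 8 replacement histones were called, with 3 and 1 higher and 2 and 2 lower by the adjusted p alone.

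Of the calls in the S-phase and mitosis lists in the leukemias, more were lower than higher. Of 42 S-phase genes 1 was higher and 5 lower in Pax5+/-;Myd88+/- leukemias than in sorted WT cells, among them E2f2 (-2.24, SE 0.27) and Rrm2, a subunit of ribonucleotide reductase (-1.75, SE 0.21). Of 22 mitosis genes 5 were lower and 0 higher, with a median of -0.40, and Ccnb2 (-1.48) and Aurkb (-1.37) fell most. All probesets gave 4.30% lower and 3.33% higher calls there. By the adjusted p alone 12 mitosis genes were lower and 1 higher, and 8 S-phase genes were lower and 4 higher. All probesets gave 17.1% lower and 13.8% higher by that rule. Between the leukemias 1 S-phase gene (Rfc4, -1.21) and 2 mitosis genes (Aurkb, -1.15, and Cdk1, -1.09) were lower and 0 were higher. All probesets gave 2.56% lower and 1.25% higher calls between the leukemias. In Pax5+/- leukemias E2f2 (-2.06) and Rrm2 (-1.21) were also lower and Tk1 was higher (1.07, SE 0.10). The array medians of the S-phase list overlapped among all groups, with 9.46 to 10.24 in Pax5+/-;Myd88+/- and 9.64 to 10.20 in Pax5+/- leukemias.

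Another class of RNA without a poly(A) tail moved with H2ac4. Of 54 small nucleolar RNA genes named singly, 32 were higher and 0 lower in Pax5+/-;Myd88+/- leukemias than in sorted WT cells (3.33% and 4.30% of all probesets). The median difference was 1.17, beside -0.04 for the 30 histone genes. Against Pax5+/- leukemias 24 were higher and 2 lower (1.25% and 2.56% of all probesets). The median there was 0.68, beside 0.19 for the 30 histone genes. The snoRNA median per array was 8.49 to 8.62 in sorted WT cells, 9.18 to 9.62 in Pax5+/- leukemias, 10.37 to 11.81 in Pax5+/-;Myd88+/- leukemias and 10.06 to 10.44 in proB cells. H2ac4 differed from the snoRNA genes between sorted WT cells and Pax5+/- leukemias. There 18 of 54 snoRNA genes were called higher and 0 lower (2.73% and 1.72% of all probesets), with a median of 0.77, and H2ac4 differed by -0.59. The part of whatever moved the snoRNA signal in the H2ac4 result was not tested.

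**Figure D4:**
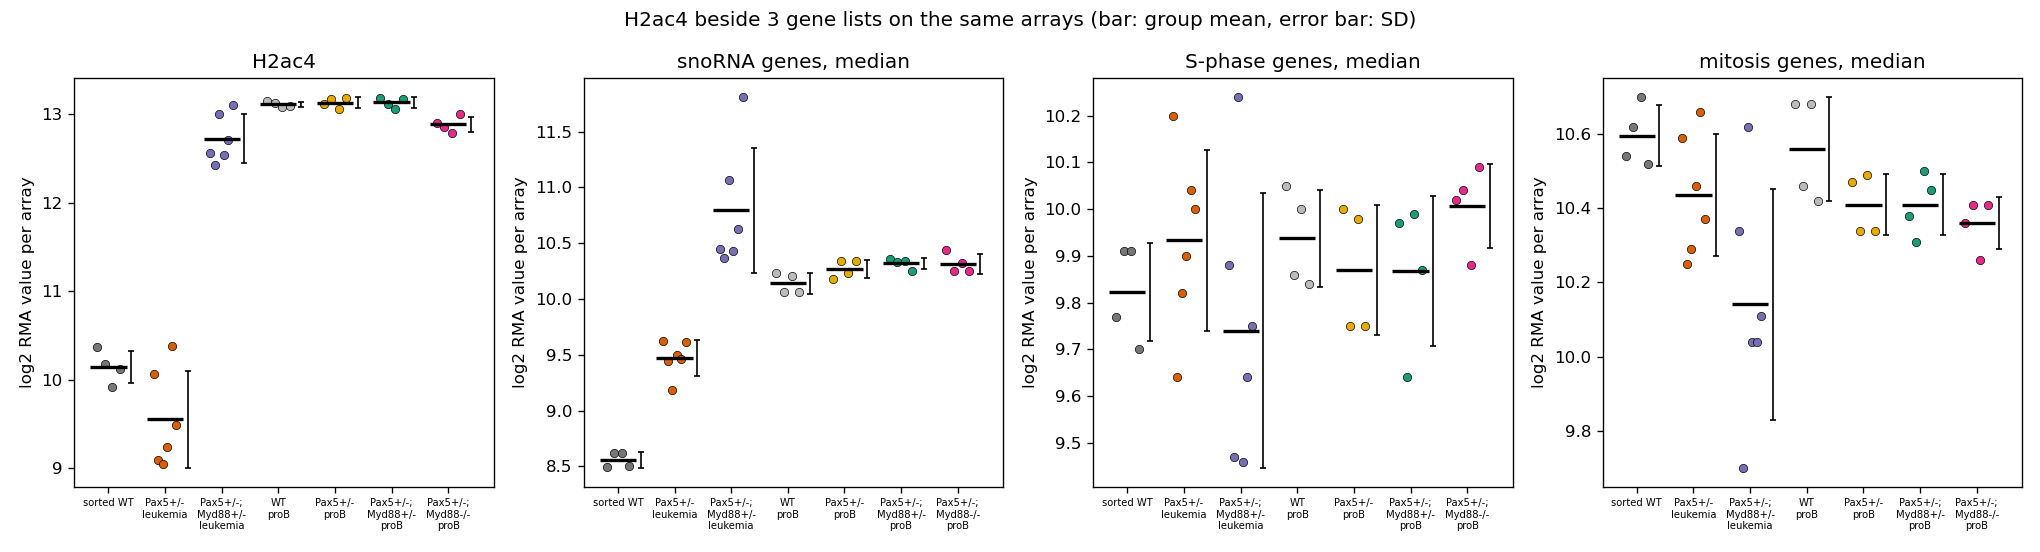
Log2 signal per array of H2ac4 and the array medians of 54 snoRNA, 42 S-phase and 22 mitosis genes in the 7 groups, with bars for means and error bars for SD. H2ac4 and the snoRNA genes are high in Pax5+/-;Myd88+/- leukemias and proB cells, while the medians of the S-phase genes overlap in all 7 groups.

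Markers of other cells differed between the groups compared. Of 8 NK cell markers 6 were lower in each leukemia genotype than in sorted WT cells (array medians of 7.93 to 8.73 in sorted WT cells, 5.34 to 6.48 in leukemias), and of 8 erythroid markers 5 were lower in Pax5+/-;Myd88+/- and 4 in Pax5+/- leukemias. Of 8 stromal markers 4 and 6, of 10 macrophage markers 3 and 5 and of 4 platelet markers 1 and 4 were higher. Of 7 B-lineage markers 3 and 1 and of 6 T cell markers 1 and 1 were lower, and of 12 granulocyte markers 0 and 1 were higher. Between the leukemias 3 stromal, 2 platelet, 1 macrophage, 1 granulocyte and 1 NK cell marker were lower and 1 B-lineage marker was higher in Pax5+/-;Myd88+/- leukemias. Signal of an RMA array has no true zero, so no marker could be read as absent, and the part of these cells in the histone results was not tested.

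WT proB cells were also set against the sorted WT cells, the same 4 control samples as for the leukemias. This comparison crosses the experiments, so cell stage and preparation cannot be told apart. H2ac4, H4c9 and H4c3 were called higher (3 of 30, beside 3.75% of all probesets) and H2bc4 and H1f2 lower (2 of 30, beside 6.20%). Without the fold limit 15 of 30 were higher (22.9% of all probesets) and 4 lower (19.6%). The median difference was 0.27, beside 0.04 over all probesets. H2ac4 read 13.15, 13.13, 13.08 and 13.09 in WT proB cells, a difference of 2.96 (SE 0.19, adjusted p = 1.03e-12 by limma). H4c9 read 10.10, 10.24, 10.17 and 10.33 (1.37, SE 0.22), and H4c3 read 12.49, 12.61, 12.42 and 12.60 (1.25, SE 0.20). All 4 values of each gene lay above all sorted WT values. H2bc4 read 7.11, 5.95, 6.95 and 6.71 (-2.86, SE 0.34, adjusted p = 9.98e-08 by limma) and H1f2 8.48 to 9.01 (-2.15, SE 0.27, adjusted p = 3.00e-07 by limma), below all sorted WT values. The exact permutation test gave p = 0.0286 for each of the 5 genes, the smallest that 70 splits allow.

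The 2 members of the Hist2 cluster that code for H2B went apart in this comparison: H2bc18 was higher (0.95, SE 0.10, adjusted p = 1.62e-08 by limma) and H2bc21 lower (-0.81, SE 0.11, adjusted p = 4.45e-07 by limma). H3c15 read 8.07, 7.38, 8.10 and 7.29 in WT proB cells (-0.91, SE 0.38, adjusted p = 0.0538 by limma). Of the replacement histones H2az2 (-2.31, SE 0.21) and H2ax (-1.72, SE 0.16) were lower and of the chaperones Supt16, a subunit of FACT, was higher (1.14, SE 0.10), while Asf1a (-1.09) and Asf1b (-1.01) were lower. Sympk was higher (2.36, SE 0.51). Of 8 stromal markers 6 were higher in WT proB than in sorted WT cells, and 7 of 8 NK, 5 of 8 erythroid, 5 of 12 granulocyte, 2 of 10 macrophage and 1 of 6 T cell markers were lower. Of 7 B-lineage markers Vpreb1, a part of the surrogate light chain, was higher (2.94, SE 0.60) and Cd79b, a signaling chain of the B-cell receptor, lower (-2.29, SE 0.22). Of 42 S-phase genes 1 was called higher and 4 lower, and by the adjusted p alone 18 were higher and 7 lower, with a median of 0.21. Of 22 mitosis genes 0 were called higher and 2 lower, and by the adjusted p alone 6 were higher and 7 lower, with a median of 0.00. The part of these lists in the histone values was not tested.

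In all 4 proB genotypes the arrays numbered 1 and 3 stood apart from those numbered 2 and 4. The median of the 8 stromal markers read 9.75 and 9.61 against 8.69 and 8.66 in WT, 9.82 and 9.98 against 7.98 and 7.92 in Pax5+/-, 9.23 and 9.28 against 8.11 and 8.16 in Pax5+/-;Myd88+/- and 8.41 and 8.40 against 8.04 and 7.99 in Pax5+/-;Myd88-/- cells. Some members went with it in single genotypes: H3c15 read 8.07 and 8.10 against 7.38 and 7.29 in WT cells, and H1f2 read 9.28 and 9.08 against 8.60 and 8.63 in Pax5+/-;Myd88-/- cells. H2ac4 in WT proB cells was 2.96 and 2.97 above sorted WT cells without the arrays numbered 1 and 3 and without those numbered 2 and 4. What the numbers stand for is not given in the sources used here, and the comparisons below were also taken with this split as a block and within each side of it, a choice made after the values were seen.

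Within the proB experiment no histone gene differed more than 2-fold in any comparison. Between Pax5+/- and WT proB cells 0 of 30 genes were called, beside 1.08% of all probesets, and the median difference was 0.00. The adjusted p alone gave 1 higher gene (4.10% of all probesets) and 0 lower ones (2.96%). This gene was H2bc21, which read 0.31 higher (SE 0.06, adjusted p = 0.00463 by limma). At an unadjusted p under 0.05 limma found 3 and the methods' t-test 4 of 30 genes, beside 16.8% of all probesets. Without replicate 1 of the Pax5+/- proB arrays the 1 gene became 2, and the methods' t-test with adjustment found 0. H2ac4 read 13.12, 13.17, 13.06 and 13.19 in Pax5+/- proB cells and differed by 0.02 (SE 0.05, adjusted p = 0.913 by limma).

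Loss of 1 Myd88 allele on top of Pax5+/- moved no histone gene past the test in proB cells. Of 30 genes 0 were called, beside 0.812% of all probesets, and by the adjusted p alone 0 were higher (2.02%) and 0 lower (2.29%). At an unadjusted p under 0.05 limma found 4 and the methods' t-test 3 of 30 genes, beside 11.7% of all probesets. The median difference was 0.04. H2ac4 read 13.19, 13.12, 13.06 and 13.18 in Pax5+/-;Myd88+/- proB cells, a difference of 0.00 (SE 0.05, adjusted p = 0.995 by limma) with overlapping values. H4c3, H4c9 and H1f2 differed by 0.03, 0.00 and 0.10. H2bc4 had the largest difference, -0.60 (SE 0.25, adjusted p = 0.3 by limma), and its values of 6.57, 6.08, 6.59 and 7.14 overlapped with 7.50, 7.10, 6.99 and 7.21.

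Loss of both Myd88 alleles went with slightly lower values across the family. Against Pax5+/- proB cells 30 of 30 differences were below 0, beside 16367 of 28944 probesets. The median of the 30 genes was -0.18, beside -0.02 over all probesets. No gene was called (0.981% of all probesets). By the adjusted p alone 0 were higher (6.66%) and 9 of 30 were lower (4.86%): 5 of 6 H4, 2 of 8 H1, 1 of 4 H2a, 1 of 9 H2b and 0 of 3 H3 genes. The 3 H3 genes averaged only 5.04 to 7.94 over all arrays, and the brighter probesets that name several H3 genes are given below. At an unadjusted p under 0.05 limma found 15 and the methods' t-test 16 of 30 genes, beside 26.1% of all probesets. The 9 genes became 5 without replicate 3 of the Pax5+/- proB arrays and 1 when all 32 arrays shared 1 estimate of the spread. With the split by array number as a block 9 were lower, and the median was -0.16 among arrays 1 and 3 and -0.20 among arrays 2 and 4. Within these sides 26 and 29 of 30 differences were below 0. Falls were as small as -0.04 (H3c4). Centring arrays on their medians moved the median over all probesets from -0.020 to 0.033, so the direction of the smallest differences is uncertain.

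Against Pax5+/-;Myd88+/- proB cells, a comparison that shares the same 4 Myd88-/- arrays, 29 of 30 differences were below 0, beside 16727 of 28944 probesets. The median of the 30 genes was -0.24, beside -0.03 over all probesets. No gene was called (0.805% of all probesets), and by the adjusted p alone 0 were higher (6.34%) and 15 of 30 lower (4.04%): 6 of 6 H4, 3 of 4 H2a, 4 of 9 H2b, 2 of 8 H1 and 0 of 3 H3 genes. At an unadjusted p under 0.05 limma found 19 and the methods' t-test 17 of 30 genes, beside 27.2% of all probesets. The 15 genes became 3 with all 32 arrays in 1 fit and 9 by the methods' t-test. With the split as a block 16 were lower, and the median was -0.27 among arrays 1 and 3 and -0.25 among arrays 2 and 4. Within these sides 26 and 29 of 30 differences were below 0.

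H4c3 fell most in both comparisons. It read 11.95, 12.02, 11.81 and 12.08 in Pax5+/-;Myd88-/- proB cells, 12.40, 12.66, 12.72 and 12.75 in Pax5+/- and 12.83, 12.79, 12.47 and 12.55 in Pax5+/-;Myd88+/- proB cells. All 4 Myd88-/- values lay under all values of both other genotypes. The differences were -0.67 (SE 0.09, adjusted p = 0.000165 by limma) and -0.69 (SE 0.09, adjusted p = 0.000146 by limma). Within arrays 1 and 3 they were -0.68 and -0.77, and within arrays 2 and 4 -0.66 and -0.62. H4c9 read 9.96, 9.73, 9.89 and 9.94 in Myd88-/- cells and 10.18 or more in both other genotypes, with differences of -0.43 and -0.42 (SE 0.08 each). H4c8 (-0.41 and -0.33) and H4c6 (-0.39 and -0.34) followed. H2ac4 read 12.90, 12.86 and 12.79 in 3 of the 4 Myd88-/- arrays, and the highest of the 4 still lay under every value of both other genotypes (-0.25 and -0.25, SE 0.05, adjusted p = 0.0064 and 0.0069 by limma).

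The linker histones H1f1 (-0.28 and -0.33) and H1f5 (-0.25 and -0.42) were lower in both comparisons, while H1f2 did not pass the test (-0.10 and -0.20). H2bc4 was the 1 gene above 0 against Pax5+/-;Myd88+/- cells (0.45, SE 0.25, adjusted p = 0.258 by limma). The 26 probesets that name several histone genes were also all below 0 in both comparisons, with medians of -0.13 and -0.17, and 7 and 16 of them passed the adjusted p. Of these, 10 name H3 genes and no other histone type. The median of their means was 14.07 in Myd88-/- cells, 14.15 in Pax5+/- and 14.19 in Pax5+/-;Myd88+/- proB cells. The S-phase list did not fall with the histone probesets: 35 and 29 of its 42 genes were above 0, with medians of 0.14 and 0.07, and 0 were called. Of the 54 snoRNA genes 39 and 32 were below 0, with medians of -0.13 and -0.04. Of the 20 genes of histone expression, Sympk alone was called, at 10.86 in Pax5+/-;Myd88+/- proB cells against 12.30 in Pax5+/- (-1.44, SE 0.12) and 12.07 in Myd88-/- cells (1.21, SE 0.12). Stromal markers were below 0 in 8 of 8 genes in both comparisons, with medians of -0.64 and -0.44. Their part in the lower histone signal was not tested.

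**Figure D5:**
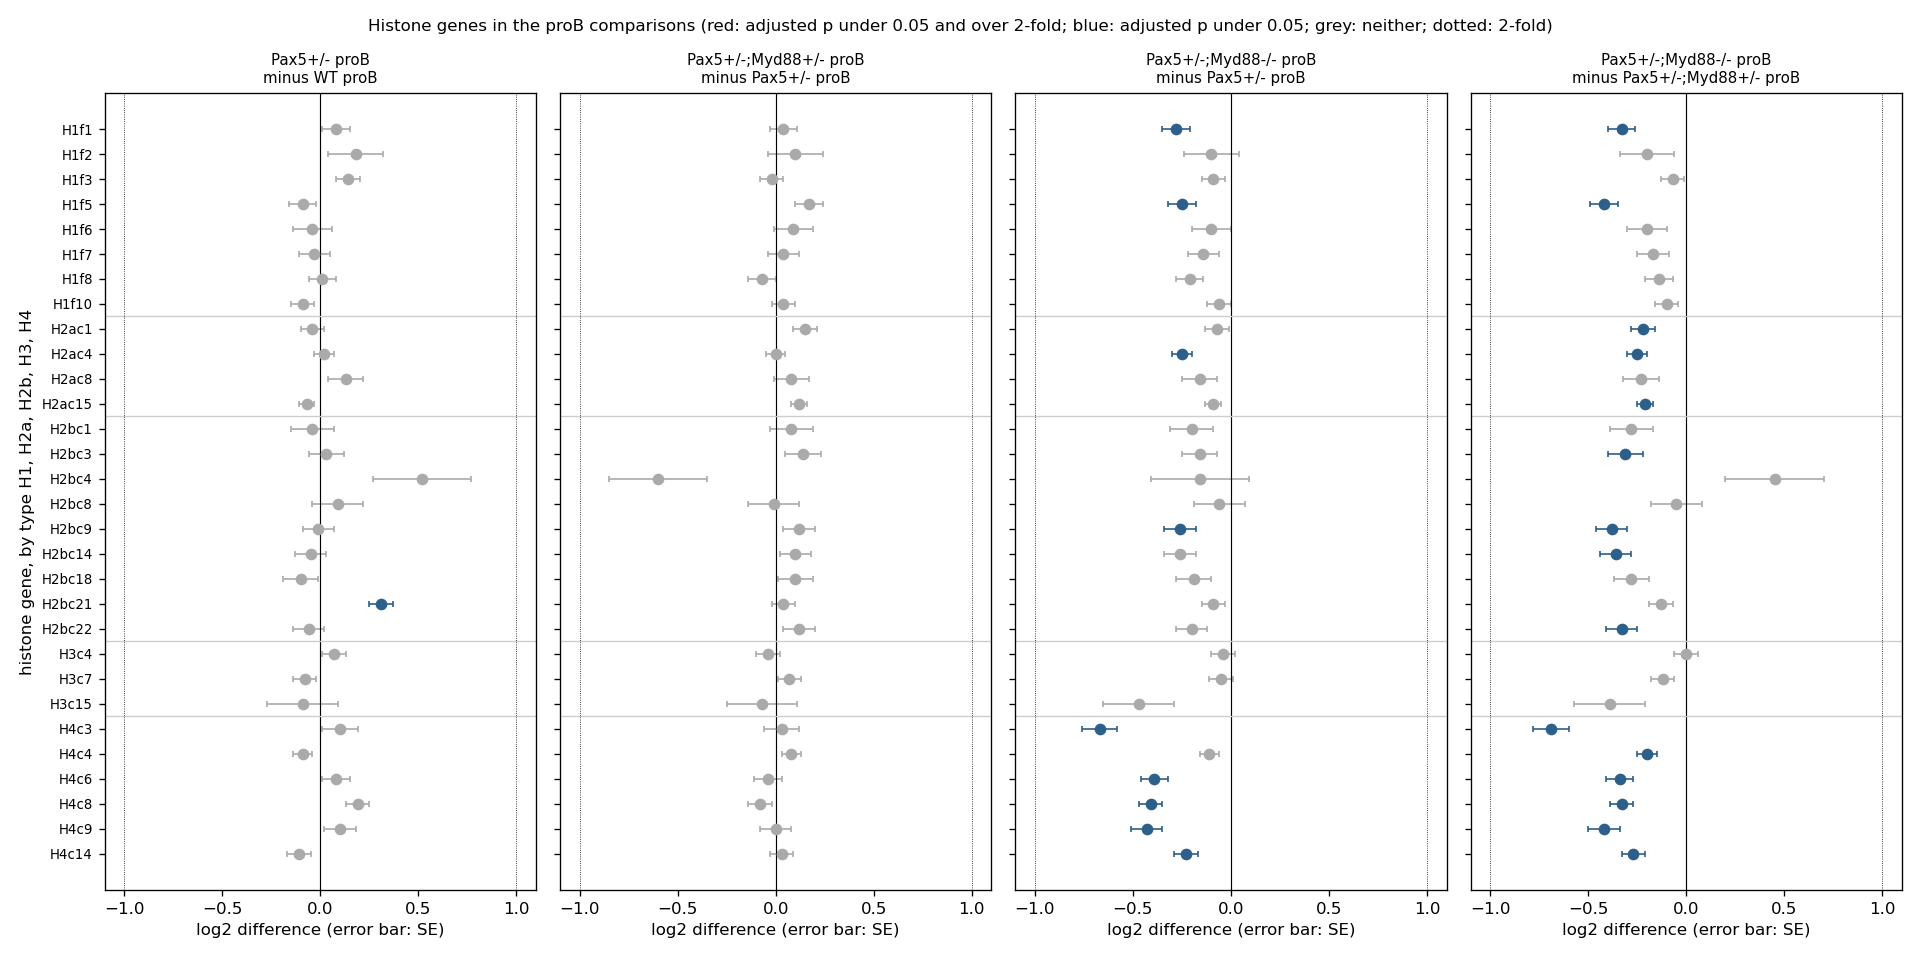
Log2 differences of the 30 histone genes (y axis, by type) in the 4 proB comparisons, with SE as error bars. Blue points pass the adjusted p alone, grey points do not, and no point reaches the dotted 2-fold lines. In both panels with Pax5+/-;Myd88-/- cells nearly all points lie left of 0, and H4c3 lies at -0.67 and -0.69.

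The difference between both Myd88 contrasts, Pax5+/-;Myd88+/- minus Pax5+/- in leukemias and in proB cells, was itself tested over all 32 arrays, a test added after the values were seen. Of 30 genes 8 passed the adjusted p, beside 21.8% of all probesets. H2ac4 stood at 3.17 (SE 0.25, adjusted p = 5.47e-10 by limma), since its difference was 3.17 in leukemias and 0.00 in proB cells. H4c9 stood at 1.19 (SE 0.29) and H4c3 at 0.99 (SE 0.26), and H1f2 at -1.30 (SE 0.35, adjusted p = 0.00863 by limma). H4c4 (-0.60), H4c8 (0.42), H2ac15 (-0.41) and H2ac1 (0.32) were the others. Leukemias were compared as whole marrow and proB cells as selected cells, so genotype by stage and genotype by preparation cannot be told apart.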

How the data were processed

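Expression was measured on Affymetrix MoGene 1.0 ST arrays from total RNA. Per the study's methods, the authors processed the arrays in Transcriptome Analysis Console 4.0.1 with gene-level RMA on mm10, which corrects background, normalizes quantiles and summarizes probes. The deposited unit is log2, and whether all 32 arrays were normalized together is not given in the sources used here. Quantile normalization fixes the distribution per array, so a change of the whole RNA pool cannot be seen. Of 28944 probesets 21789 name 1 gene, 1621 several and 5534 none in the platform's annotation.

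Tests used limma 3.58.1 in R 4.3.3 on the 16 arrays of each experiment (all 32 for WT proB against sorted WT and for the difference of contrasts), with group means and Benjamini-Hochberg adjustment over all probesets, no filter and no block. A call needs an adjusted p under 0.05 and over 2-fold change. Genes were named by rule: members called, up to 8 largest rises and falls per comparison, the highest and lowest mean of each type, up to 4 called genes with the largest change per list, and Myd88 and Pax5. Others (mitosis genes, Npat, Hinfp and Slbp) were chosen after their values were seen. The members and lists were chosen with earlier results of these data known. The labels call the samples biological replicates. The fits were tested on simulated data. The number of arrays limits the precision. Columns of the table without a sample numbered 0. Promoters are RefSeq's (GRCm38.p6).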

Additional observations from a re-analysis of the deposited data

Results flagged for a closer look

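The Myd88 contrast differed between leukemias and proB cells, by a limma interaction term, for 4 of the histone genes called in any comparison. These genes were picked by calls on the same arrays, so the term is no independent support. Of all 30 genes 5 were higher and 3 lower by the adjusted p, beside 21.8% of all probesets in either direction. Genotype by stage and genotype by preparation cannot be told apart. H2ac4 stood at 3.17 (adjusted p = 5.47e-10), H4c9 at 1.19 (adjusted p = 0.00337), H4c3 at 0.99 (adjusted p = 0.00603) and H1f2 at -1.30 (adjusted p = 0.00863). In a search for single arrays far from the rest of their group, over 49 groups of values, 1 stood out: H2bc8 read 9.16 in replicate 2 of the Pax5+/- proB cells, against 9.33 in the nearest array. Chance marks about 1 in 20 such groups.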

How the results depend on the processing

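Counts of histone genes stayed within 1.5 times of the reported count in 329 alternative fits and left that range in 17. The 17 called log2 differences kept their call in 347 refits and lost it in 19. None changed sign. The calls lost were those of H2bc8 in Pax5+/- leukemias (11 refits, -1.42 to -1.25), H4c3 between the leukemias (7 refits, 0.88 to 0.98) and H4c9 there (0.86). With no minimum fold, the called genes went from 4 to 13 (Pax5+/-;Myd88+/- leukemia against sorted WT), from 3 to 9 (Pax5+/- leukemia against sorted WT), from 5 to 14 (between leukemias), from 0 to 1 (Pax5+/- against WT proB), from 0 to 9 and from 0 to 15 (Pax5+/-;Myd88-/- against Pax5+/- and Pax5+/-;Myd88+/- proB) and from 5 to 19 (WT proB against sorted WT). By the adjusted p alone, Pax5+/- against WT proB gave 0 genes with all 32 arrays in 1 fit and 0 by the methods' t-test, and 1 to 2 with 1 array left out. Pax5+/-;Myd88-/- against Pax5+/- proB gave 1 with all 32 arrays, 5 with arrays centred on their medians, 3 by the methods' t-test and 5 to 11 with 1 array left out. Pax5+/-;Myd88-/- against Pax5+/-;Myd88+/- proB gave 3 with all 32 arrays and 9 by the methods' t-test. Pax5+/- leukemia against sorted WT gave 5 to 10 with 1 array left out. The cause was not tested. With the replicate number as a block, 4, 3 and 6 genes were called in the 3 leukemia comparisons, 0 in each proB comparison and 5 in WT proB against sorted WT; by the adjusted p alone 8 and 16 were lower in Myd88-/- proB cells. Single replicate numbers did not meet the rule for pairs: deviations of samples with the same number correlated at -0.15 to 0.52 (leukemia) and -0.27 to 0.41 (proB), and 2 of 16 samples in each experiment correlated best with their own number. The proB medians were 0.09 for the same number and -0.06 for different numbers. Another split gave similar medians across genotypes. They were 0.11 (-0.27 to 0.67) over 48 pairs within numbers 1 and 3 or 2 and 4. Between these sides the median was -0.10 (-0.69 to 0.31) over 48 pairs, so the ranges overlapped. As a block, chosen after seeing the data, this split left the proB counts by the adjusted p alone at 1, 0, 9 and 16. Each member has 1 probeset, so averaging probesets changed no member. Genes near background, such as H3c7, have little room to fall.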
